A study of Mus musculus with 6 samples.

Results

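Interferon-stimulated genes are the genes that a cell switches on when interferon reaches it, and 41 of them, chosen by symbol, were followed here among the 46517 genes of the count tables. All 41 were found, and each was described across 6 cultures of primary renal tubule epithelial cells (RTECs). The cells came from the kidneys of wild type FvB mice aged 4 to 6 weeks by the labels, while the study's methods give a slightly younger range, and neither group carried a transgene or a deletion. Cells of both groups were grown with serum and EGF and then kept in serum-free medium for 24 h. The 3 control (CTL) cultures received no TGF-β1, and the 3 TGF-β1 cultures received 50 ng/ml of this profibrotic cytokine for 24 h. RNA-seq of poly(A)-selected RNA gave 28313080 to 34183497 counts on genes per culture, and the comparison asks which of these genes differed in RTECs exposed to TGF-β1.

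Interferon signalling starts with sensors of foreign nucleic acid, which switch on interferon genes. The secreted interferon binds its receptors, Janus kinases become active, and the complex ISGF3, which holds Stat2 and Irf9, binds a promoter element called the ISRE. Its target genes encode antiviral proteins, and many also encode the sensors and factors of the pathway itself, so that the response amplifies. Renal tubule cells carry these sensors and receptors, and a low level of the programme is present in many cells without infection.

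Promoter sequences were looked up first, because members that share a control element can be shown side by side. RefSeq promoters of GRCm38.p6, from 250 bases before to 50 after the start, were found for 31 of the 41 members, and they come from the reference mouse genome and not from the FvB animals. The ISRE core was searched as GAAANNGAA and, for the other strand, TTCNNTTTC. It stood in 19 of the 31 promoters (61.3%), against 9.76% of all 27025 genes with a promoter. The interferon-γ element GAS, searched as TTCNNNGAA, which reads alike on both strands, stood in 10 of the 31 (32.3%), against 9.55% of all genes. A match describes letters only and was not tested as a binding site. The stretches below are written 5′ to 3′ on the gene's own strand, with the ISRE core in capitals and up to 25 bases on either side, ending before the transcription start. They show 8 members whose counts were lower with TGF-β1, and Irgm1, which had the same element and was not lower.
Ifih1 (chr2:62646334-62646392, - strand): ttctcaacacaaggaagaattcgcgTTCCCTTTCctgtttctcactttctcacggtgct
Ifit1 (chr19:34640755-34640813, + strand): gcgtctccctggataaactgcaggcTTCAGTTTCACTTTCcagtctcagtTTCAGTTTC
Ifit3 (chr19:34583349-34583407, + strand): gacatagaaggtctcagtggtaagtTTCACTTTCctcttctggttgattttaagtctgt
Bst2 (chr8:71537569-71537627, - strand): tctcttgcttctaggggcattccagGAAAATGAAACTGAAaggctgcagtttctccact
Isg15 (chr4:156200863-156200921, - strand): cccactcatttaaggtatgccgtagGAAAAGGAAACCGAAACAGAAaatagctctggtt
Gbp2 (chr3:142620580-142620638, + strand): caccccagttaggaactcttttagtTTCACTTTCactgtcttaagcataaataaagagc
Gbp3 (chr3:142559975-142560033, + strand): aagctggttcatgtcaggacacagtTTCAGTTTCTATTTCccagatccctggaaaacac
Gbp7 (chr3:142530259-142530317, + strand): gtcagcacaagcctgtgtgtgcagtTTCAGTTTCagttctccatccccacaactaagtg
Irgm1 (chr11:48871421-48871475, - strand): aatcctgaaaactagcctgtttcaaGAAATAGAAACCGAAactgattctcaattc
In Ifit1 and Isg15 the letters matched 3 times within the stretch printed, with overlapping copies merged in the capitals. In Gbp3, Bst2 and Irgm1 they matched 2 times. The promoters of Irf7, Irf9, Ifit2, Cmpk2 and Xaf1, which were also lower with TGF-β1, did not hold these letters in the window searched.

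The cultures carry replicate numbers, and same-numbered cultures deviated together over all tested genes, so the fit with the replicate number as a block is given beside each count or gene whose call it changes. Over the 33 tested members alone, number 2 stood out as a pair (r = 0.79 across genes, which are not independent), while cultures numbered 1 and 3 correlated alike within numbers (0.43 and 0.47) and across them (0.53 and 0.45). The 2 cultures numbered 2 stood apart from the other 4. In them the Y-linked genes Ddx3y, Eif2s3y, Kdm5d and Uty summed to 151 CPM (counts scaled to a fixed library total) in CTL and 142 CPM in TGF-β1, against at most 0.172 CPM in the other cultures, while the study describes male mice. The X-linked Xist was present in all cultures, at 237 CPM in CTL 2, 207 CPM in TGF-β1 2 and 516 to 634 CPM in the others. The replicate number cannot be told apart from these sex-linked differences. In the cultures numbered 2 the summed tubule epithelium markers were lowest (1059.9 and 916 CPM, against 1786 to 2637), and the summed fibroblast markers highest (2116 and 2402 CPM, against 765 to 1035). TGF-β1 response genes checked the labels, and 5 of 6 rose in the edgeR test, with log2 fold changes from 0.42 to 1.46. The other had a negative estimate that did not pass.

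Many of the interferon-stimulated genes were lower in RTECs treated with TGF-β1. The 41 were chosen with earlier results of these data known, so their shares beside all genes describe the list and do not test it. Of the 41, 33 had enough counts to be tested. In the edgeR quasi-likelihood test without the replicate block, adjusted over 15862 genes, 10 of them fell (Irf7, Irf9, Ifit1, Ifit2, Cmpk2, Ifitm3, Gbp2, Gbp3, Gbp7 and Iigp1), against 6.69% of all tested genes that fell. None rose, in edgeR, DESeq2 or limma-voom, and none had a positive change at an unadjusted p under 0.05 in edgeR, where 5.0% of all tested genes rose. With the replicate block 22 of the 33 fell, against 19.1% of all genes, and again none rose, against 15.1%, although 2 were higher at an unadjusted p under 0.05. The 12 added by the block were Ifih1, Ddx58, Stat2, Ifit3, Bst2, Ifi44, Isg15, Trim25, Igtp, Parp14, Xaf1 and Rtp4. DESeq2 without the block called 14 lower, in a fit with 1521 of all genes lower. To the 10 it added Ddx58, Ifit3, Isg15 and Trim25.

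The median log2 fold change of the 33 was -0.52 without the block and -0.49 with it, beside -0.0028 for all tested genes. The estimate was negative for 29 members and positive for 4 (Irf1, Irgm1, Parp9 and Dtx3l), of which Parp9 turned negative when scaled by library size only. In 18 of the 33, every TGF-β1 culture was below every CTL culture, against 18.0% of tested genes, and the reverse held for Irgm1 alone. Within same-numbered pairs, 26 of the 33 were lower with TGF-β1 in all 3 pairs, against 32.6% of tested genes. The median pair ratio of the members was -0.48, -0.60 and -0.52 on the log2 scale in pairs 1, 2 and 3. In 4 of the tested members (Ifit1, Mx2, Iigp1 and Rtp4), fewer than 3 TGF-β1 cultures reached the minimum of the low count filter while all CTL cultures did, so these entered the test through their CTL level. With no such filter all 41 could be fitted, 37 had a negative change and 9 fell. Of all 27562 genes in that fit 1001 fell, and their median log2 fold change was -0.0032.

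**Figure D1:**
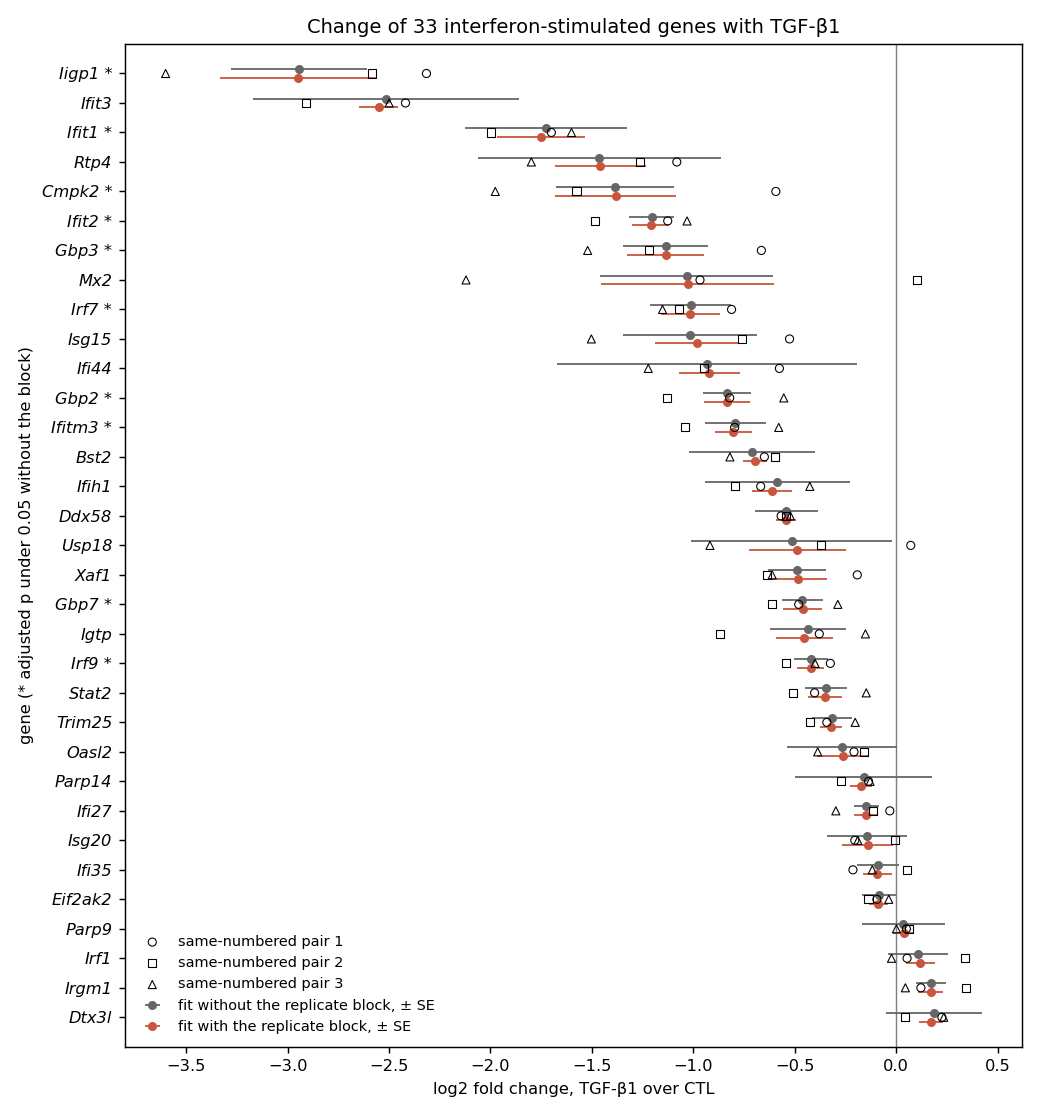
Log2 fold change, TGF-β1 over CTL, of the 33 tested interferon-stimulated genes, in order of the blocked estimate. Filled points with bars are the edgeR estimates ± SE without (grey) and with (red) the replicate block, open symbols are the 3 same-numbered pairs, and a star marks the 10 genes past an adjusted p of 0.05 without the block. From Iigp1 (-2.94) to Dtx3l (0.18) most estimates lie left of 0, and the bars of Ifit3, Ifi44 and Bst2 shorten with the block.

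Without the block, Ifit2 and Iigp1 passed the threshold whichever culture was left out, though Iigp1 entered the test through its CTL level. The count fell from 10 to 2 without CTL 1 or without TGF-β1 1, and to 4 without CTL 3 or without TGF-β1 2. It was 5 without TGF-β1 3 and 7 without CTL 2, of which 4 and 6 were among the 10. Lower calls over all genes also dropped, from 1061 to 186 without CTL 1 and 193 without TGF-β1 1. They were 807 without CTL 3, 693 without TGF-β1 2, 566 without TGF-β1 3 and 612 without CTL 2. Leaving out both cultures numbered 1 left 0 lower members in edgeR (12 at an unadjusted p under 0.05), in a fit that called no gene at all. Leaving out both numbered 3 left Ifit2 alone, in a fit with 190 of all genes lower. Without both cultures numbered 2, 9 members and 1290 of all genes fell, and 7 of these members were among the 10. In the blocked fit the member count was 17, 21 and 21 without numbers 1, 2 and 3, beside 1649, 2718 and 3254 of all genes. Of the 22 blocked calls, these fits kept 17, 19 and 21. Xaf1 was lost in all 3 of these blocked fits, and Igtp and Parp14 without number 1 and without number 2. Without number 2, Mx2 and Rsad2 were called in addition. Scaling by library size only moved the split over all genes from 793 higher and 1061 lower to 508 higher and 1467 lower, and the members stayed at 0 higher and 10 lower.

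**Figure D2:**
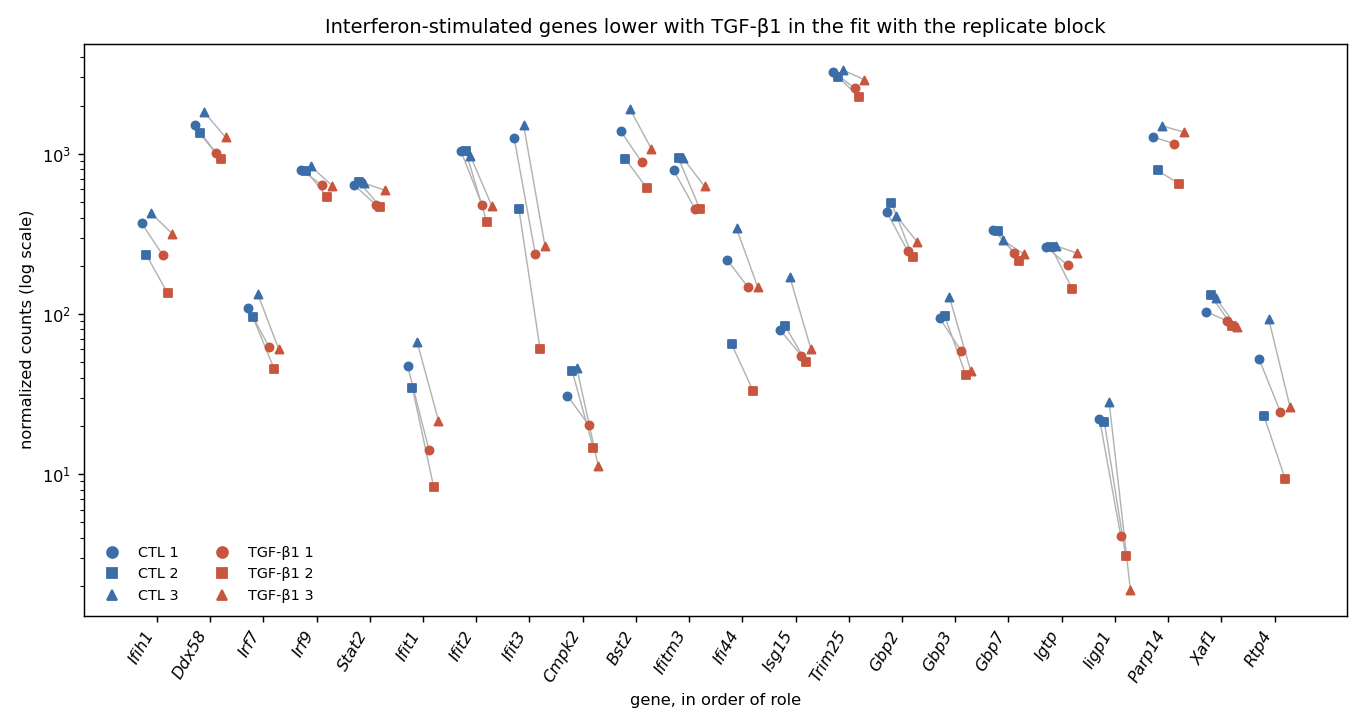
Normalized counts (log scale) in each of the 6 cultures for the 22 members lower with TGF-β1 in the fit with the replicate block. Blue is CTL, red is TGF-β1, the symbol gives the replicate number and a grey line joins same-numbered cultures. Every line slopes down, and for Ifit3, Ifi44 and Parp14 the cultures numbered 2 (squares) lie below the others of their group.

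Both measured RNA sensors fell in edgeR with the block and neither did without it. In DESeq2 without the block Ddx58 also fell (adjusted p = 0.0164). Ifih1 encodes MDA5, which detects long double-stranded RNA. Its normalized counts were 370.2, 234 and 426 in CTL 1, 2 and 3 and 233, 135 and 317 in TGF-β1 1, 2 and 3. The groups overlapped, since TGF-β1 3 lay above CTL 2, but each TGF-β1 culture was below its own pair. The log2 fold change was -0.59 ± 0.36 (SE; edgeR adjusted p = 0.341), and with the block -0.61 ± 0.10 (adjusted p = 0.00237). Ddx58 encodes RIG-I, the sensor of viral RNA ends, with normalized counts of 1505, 1347 and 1820 in CTL and 1015, 925 and 1267 in TGF-β1. All 3 TGF-β1 cultures were below all CTL cultures, and the pair ratios were close together (-0.57, -0.54 and -0.52). Its log2 fold change was -0.54 ± 0.16 (edgeR adjusted p = 0.0797), and -0.54 ± 0.05 with the block (adjusted p = 0.000123). Zbp1, a sensor that can trigger cell death, had 0 to 6 counts per culture and was not tested.

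Of the 4 transcription factors, Irf7 and Irf9 fell in both fits, Stat2 fell with the block and Irf1 did not pass either. Irf7, which drives the second wave of interferon production, had 109, 96.2 and 134 normalized counts in CTL and 62, 45.6 and 60.1 in TGF-β1. The groups did not overlap, and the log2 fold change was -1.01 ± 0.20 (edgeR adjusted p = 0.0273). Irf9, the DNA-binding subunit of ISGF3, had 794, 784 and 837 in CTL and 634, 538 and 634 in TGF-β1. These groups were also apart, at a smaller log2 fold change of -0.42 ± 0.08 (edgeR adjusted p = 0.0296). Stat2, another subunit, had 637, 664 and 656 in CTL and 482, 466 and 592 in TGF-β1. Here TGF-β1 3 was the closest to CTL. The change was -0.34 ± 0.10 (edgeR adjusted p = 0.0849) and -0.35 ± 0.08 with the block (adjusted p = 0.0129). Irf1, which responds mainly to interferon-γ, had a log2 fold change of 0.11 ± 0.15 (edgeR adjusted p = 0.682) and overlapping groups, and its estimate was -0.04 without CTL 2.

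The Ifit proteins bind foreign RNA and block its translation, and Ifit1 and Ifit2 fell in both fits and Ifit3 with the block. They lie together on chromosome 19 (GRCm38), Ifit2 at 34550694 to 34576419, Ifit3 at 34583531 to 34588731 and Ifit1 at 34640871 to 34650009, all on the + strand. Ifit2 had 1046, 1044 and 970.1 normalized counts in CTL and 479, 373 and 474 in TGF-β1. The 2 groups were far apart relative to their spread, with a log2 fold change of -1.21 ± 0.11 (edgeR adjusted p = 0.00379). Ifit1 was scarcer, with 47.4, 34.6 and 66.6 in CTL and 14.2, 8.3 and 21.6 in TGF-β1. Its groups did not overlap either, and the change was -1.73 ± 0.40 (edgeR adjusted p = 0.0427).

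Ifit3 had 1263, 455 and 1506 normalized counts in CTL and 236, 60.1 and 266 in TGF-β1. The culture numbered 2 was the lowest of each group, so the spread within groups was wide, yet the 3 pair ratios were -2.42, -2.91 and -2.50 on the log2 scale. The log2 fold change was -2.52 ± 0.66 without the block (edgeR adjusted p = 0.0623) and -2.55 ± 0.09 with it (adjusted p = 3.46e-06). In DESeq2 without the block Ifit3 also fell (adjusted p = 0.00822). Ifit3 has a near-identical neighbour, Ifit3b. Reads aligned to several places were left out of the counts, so the pair is undercounted and its values are uncertain.

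The Oas genes, whose products switch on an RNA-degrading enzyme, were near the floor of detection. Oas1a had 32 counts summed over the CTL cultures and 12 over the TGF-β1 cultures, Oas2 had 6 and 1, and Oas3 had 8 and 1. Oasl1 had 38 and 23. None of these was tested, and in the fit with no filter their adjusted p ranged from 0.287 to 0.45. Oasl2, the member of the family with the most counts, had a log2 fold change of -0.27 ± 0.27 (edgeR adjusted p = 0.570) and overlapping groups.

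Of the 7 tested other antiviral effectors, Cmpk2 and Ifitm3 fell in both fits and Bst2 and Ifi44 with the block. Ifitm3, which stops viruses from fusing with endosomes, had 788, 936 and 935 normalized counts in CTL and 453, 454 and 626 in TGF-β1. All TGF-β1 cultures were below all CTL cultures, and the log2 fold change was -0.79 ± 0.15 (edgeR adjusted p = 0.0259). Cmpk2, a mitochondrial nucleotide kinase, had 30.9, 44.3 and 45.8 in CTL and 20.3, 14.5 and 11.3 in TGF-β1. The groups were apart at this low level, with a change of -1.39 ± 0.29 (edgeR adjusted p = 0.0335). Rsad2, which makes an antiviral nucleotide and adjoins Cmpk2 on chromosome 12, had 17, 7 and 14 counts in CTL and 5, 2 and 6 in TGF-β1 and was not tested. Its adjusted p was 0.128 in the fit with no filter, where it was the only untested member at an unadjusted p under 0.05.

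Bst2 encodes tetherin, which holds budding viruses on the cell surface. It had 1393, 929 and 1898 normalized counts in CTL and 887, 614 and 1075 in TGF-β1. CTL 2 lay below TGF-β1 3, so the groups overlapped, and each TGF-β1 culture was below its pair. The log2 fold change was -0.71 ± 0.31 (edgeR adjusted p = 0.196), and with the block -0.70 ± 0.06 (adjusted p = 0.000116). Ifi44 had 218, 64.5 and 343 in CTL and 146, 33.2 and 147 in TGF-β1. The cultures numbered 2 held the lowest value of each group by a wide margin, and the change of -0.93 ± 0.74 (edgeR adjusted p = 0.465) became -0.92 ± 0.15 with the block (adjusted p = 0.00256). Mx2, Isg20 and Eif2ak2 passed in neither fit. Mx2, annotated as a polymorphic pseudogene, had a log2 fold change of -1.03 ± 0.43, Isg20, an exonuclease, -0.14 ± 0.20, and Eif2ak2, the kinase PKR that halts translation, -0.09 ± 0.08. Mx1 had at most 2 counts and Ifitm1 at most 5 in any culture.

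Isg15 and Trim25 fell with the block, and Usp18 passed in neither fit. Isg15, a ubiquitin-like protein that is joined to other proteins, had 79.3, 84.7 and 171 normalized counts in CTL and 54.9, 49.8 and 60.1 in TGF-β1. CTL 3 stood above the rest and the groups did not overlap. The log2 fold change was -1.02 ± 0.33 (edgeR adjusted p = 0.102), and -0.98 ± 0.21 with the block (adjusted p = 0.00796). Trim25, a ubiquitin ligase that helps RIG-I signal, had 3257, 3025 and 3340 in CTL and 2570, 2254 and 2903 in TGF-β1. These groups were apart by a small margin, with a change of -0.32 ± 0.10 (edgeR adjusted p = 0.0901) and the same size with the block (-0.32 ± 0.05, adjusted p = 0.00244). In DESeq2 without the block Isg15 and Trim25 also fell (adjusted p = 0.0444 and 0.0487). Usp18, which removes Isg15 and damps the receptor, had -0.52 ± 0.49 (edgeR adjusted p = 0.549), and its estimate was 0.14 without CTL 3.

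Interferon-inducible GTPases, which gather on the membranes around intracellular pathogens, had 4 of 6 members lower in both fits, and Igtp was added by the block. Gbp7, Gbp3 and Gbp2 lie in a row on chromosome 3 (GRCm38), from 142530342 to 142638008 on the + strand. Gbp2 had 435, 494 and 411 normalized counts in CTL and 246, 226 and 280.0 in TGF-β1, with a log2 fold change of -0.83 ± 0.12 (edgeR adjusted p = 0.0117). Gbp3 had 93.7, 97.2 and 128 in CTL and 59, 41.5 and 44.2 in TGF-β1, a change of -1.14 ± 0.21 (edgeR adjusted p = 0.0238). Gbp7 had 336, 330.0 and 289 in CTL and 241, 216 and 237 in TGF-β1, a change of -0.46 ± 0.10 (edgeR adjusted p = 0.037). None of the 3 had overlapping groups, and the estimate furthest from 0 was that of Gbp3. An exon of Gbp7 shares 637 bases with Gm43802 on the same strand, and reads there cannot be told apart. Shorter overlaps on the same strand were those of Rtp4 (296 bases), Igtp (162), Irf9 (123) and Parp14 (110).

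Iigp1 had the largest estimate of all members at a low level, with 22.2, 21.2 and 28.4 normalized counts in CTL and 4.1, 3.1 and 1.9 in TGF-β1. The log2 fold change was -2.94 ± 0.34 (edgeR adjusted p = 0.00698). Iigp1 entered the test through its CTL level, and was not tested when at least 10 counts were required in every culture. As summed counts Iigp1 had 71 in CTL and 9 in TGF-β1, a ratio of 0.12 after library size, with an exact 95% interval of 0.053 to 0.24 that covers counting error only. Igtp had 262, 262 and 266 in CTL and 201, 143 and 240 in TGF-β1. The CTL cultures were nearly equal while the TGF-β1 cultures spread, and the change was -0.43 ± 0.19 (edgeR adjusted p = 0.190) and -0.45 ± 0.14 with the block (adjusted p = 0.0382). Irgm1, a regulator of the other GTPases, was the exception, with 6538, 6517 and 6953 in CTL and 7113, 8266 and 7174 in TGF-β1. Every TGF-β1 culture was above every CTL culture, but the change of 0.17 ± 0.07 did not pass (edgeR adjusted p = 0.182, and 0.0651 with the block).

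Parp9, Parp14 and Dtx3l are enzymes of ADP-ribosylation and ubiquitination that lie close together on chromosome 16, and of these Parp14 fell, with the block only. Parp14 had 1275, 787 and 1495 normalized counts in CTL and 1160, 652 and 1367 in TGF-β1. The groups overlapped widely and each pair was slightly lower with TGF-β1. Its change of -0.16 ± 0.34 (edgeR adjusted p = 0.800) was -0.17 ± 0.05 with the block (adjusted p = 0.0397), and without the block its sign turned when CTL 3 or TGF-β1 2 was left out. Parp9 had a log2 fold change of 0.03 ± 0.21 and Dtx3l 0.18 ± 0.24, neither past the threshold in either fit. Their exons overlap by 458 bases on opposite strands, and the strand setting of the counting is not given in the sources used here.

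Among the remaining members, Xaf1 and Rtp4 fell with the block only. Rtp4, a chaperone of membrane receptors, had 52.2, 23.1 and 92.8 normalized counts in CTL and 24.4, 9.3 and 26.3 in TGF-β1. CTL 2 fell within the TGF-β1 range, and the change of -1.46 ± 0.60 (edgeR adjusted p = 0.175) was -1.46 ± 0.23 with the block (adjusted p = 0.00191). Xaf1, which promotes apoptosis, had 103, 131 and 127 in CTL and 90.5, 84 and 82.7 in TGF-β1. These groups did not overlap, and the change was -0.49 ± 0.14 (edgeR adjusted p = 0.0804; with the block -0.48 ± 0.14, adjusted p = 0.0326). Ifi27 and Ifi35 had changes of -0.15 ± 0.06 and -0.09 ± 0.10, neither past the threshold in either fit.

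Members differed widely in level and in how they varied between cultures. Per kilobase of exon, Bst2 was highest in CTL at 49.2 ± 16.9 CPM per kb (SD, n = 3), followed by Ifitm3 (41.3 ± 4.0), Ifi27 (37.7 ± 1.6), Irgm1 (36.2 ± 1.3) and Ifit3 (19.4 ± 9.9). Neighbours among the first 4 of these differed by less than the larger of their SDs. In TGF-β1 the order began with Irgm1 (40.8 ± 3.5 CPM per kb), Ifi27 (34.0 ± 2.0) and Bst2 (30.0 ± 8.1), and Ifit3 moved from the 5th to the 15th place, at 3.39 ± 2.01. The replicate number also separated members. In 19 of the 33 (57.6%) the culture numbered 2 was the lowest of both groups, against 24.9% of all tested genes. The widest gap to the mean of the other cultures of a group was that of Ifi44, at -2.12 in CTL and -2.14 in TGF-β1 on the log2 scale, and Ifit3 (-1.61 and -2.06) and Rtp4 (-1.65 and -1.44) came next. Stat2, Ifit2, Cmpk2, Ifitm3, Isg15, Gbp2, Gbp3, Gbp7 and Xaf1 were not lowest in CTL 2.

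**Figure D3:**
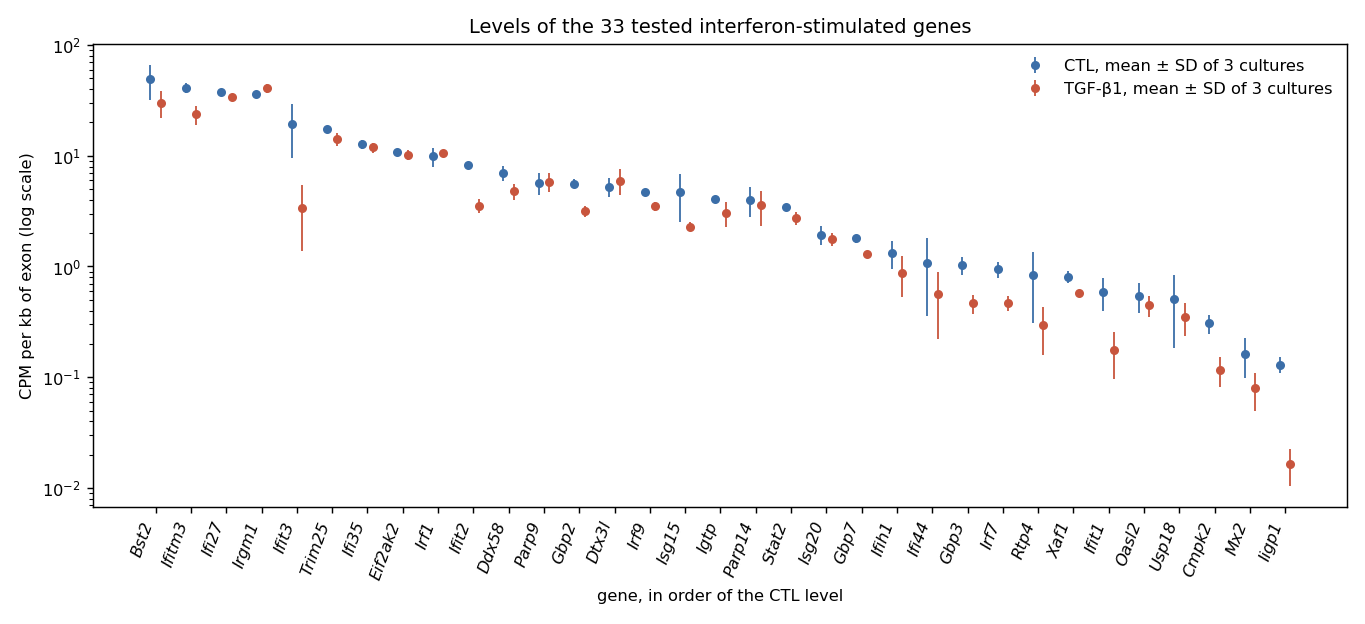
Level of the 33 tested interferon-stimulated genes in CPM per kilobase of exon (log scale), in order of the CTL level. Points are means and bars SDs of 3 cultures (blue CTL, red TGF-β1), and the level runs from 49.2 for Bst2 to 0.13 for Iigp1 in CTL.

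The genes that make and receive interferon were followed next. The list of 11 interferon ligands does not cover all Ifna genes. Of the 11, 9 had 0 counts in all 6 cultures (Ifna1, Ifna2, Ifna4, Ifna5, Ifnk, Ifne, Ifnl2, Ifnl3 and Ifng), which at these depths allows up to 0.0878 to 0.106 CPM per culture. Reads aligned to several places are not in these counts, so the bound does not cover them. Ifnb1 had 1 count in CTL 1 and 1 in TGF-β1 1. Ifnz had 6 to 16 counts per culture with a log2 fold change of 0.09 ± 0.48. All 6 receptor genes were tested, and none passed in edgeR with TMM scaling and without the block. Ifnar1, a chain of the type I interferon receptor, had 5075, 5031 and 5135 normalized counts in CTL and 4391, 4185 and 4677 in TGF-β1. These groups were apart, with a change of -0.20 ± 0.05 (edgeR adjusted p = 0.0604, and 0.00937 with the block). Its adjusted p was 0.0268 in DESeq2, and with library size only 0.0358 in edgeR. Il10rb, shared with interferon-λ signalling, had -0.26 ± 0.08 (edgeR adjusted p = 0.077, 0.00672 with the block and 0.0496 with library size only). Ifnar2 (0.03 ± 0.05), Ifngr1 (-0.06 ± 0.15), Ifngr2 (-0.09 ± 0.07) and Ifnlr1 (-0.16 ± 0.43) passed in neither fit, and scaling by library size only turned Ifnar2 to -0.05.

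In the whole list of 40 ligand, receptor and signalling genes, 29 were tested, 3 fell in edgeR and none rose in edgeR, DESeq2 or limma-voom (1 was higher in edgeR at an unadjusted p under 0.05). With the block 14 fell and 1 rose. These counts stand beside 6.69% of all tested genes lower and 5.0% higher without the block, and 19.1% and 15.1% with it, and 3 of 29 is near that background. The 3 were Samhd1, an enzyme that depletes nucleotides (-0.90 ± 0.10, edgeR adjusted p = 0.0061), Socs3, an inhibitor of cytokine signalling (-0.88 ± 0.15, 0.0184), and Mavs, the adaptor of both RNA sensors (-0.25 ± 0.04, 0.0213). The block added Irf8 (-0.88), Ikbke (-0.64), Tlr3 (-0.59), Tmem173 (-0.57) and Ptpn6 (-0.48) among the largest of the lower genes, and Socs1, another inhibitor, at 0.51 as the gene that rose. Tlr3, a sensor of double-stranded RNA, had 967, 523 and 1297 normalized counts in CTL and 633, 372 and 836 in TGF-β1, with the cultures numbered 2 the lowest of both groups.

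In a further list of 66 interferon-responsive genes outside the 41, 50 were tested. In edgeR 7 fell and 2 rose without the block, and 25 fell and 5 rose with it. Against the same shares of all tested genes, the counts higher, 2 and 5 of 50, did not exceed the background. The median log2 fold change of the 50 was -0.29. Those that fell were Ifit3b (-2.57 ± 0.31, edgeR adjusted p = 0.00889), the schlafen gene Slfn9 (-2.32), Nlrc5, an activator of MHC class I genes (-2.20), Ifit1bl1 (-2.01), Gbp8 (-1.97), Gbp9 (-1.78) and Tgtp1 (-1.52). Ifit3b and Ifit1bl1 lie between Ifit3 and Ifit1, so 5 genes along the Ifit cluster were lower, of which Ifit3 passed with the block only. Those that rose were Ifi30, a lysosomal reductase (0.60), and Ogfr, the opioid growth factor receptor (0.24), and only the first passed when scaled by library size only. With the block, Gbp4 (-2.13), Ddx60 (-1.54), Lgals9 (-1.32) and Ube2l6 (-0.94) were lower, while Sp110 (1.13) and Slfn2 (1.00) were higher. Counts in TGF-β1 1, 2 and 3 were 4, 3 and 14 for Gbp4, 3, 2 and 11 for Ddx60, and 16, 9 and 12 for Ifit1bl1. These genes, too, entered the test through their CTL level, since not every TGF-β1 culture reached the filter minimum.

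**Figure D4:**
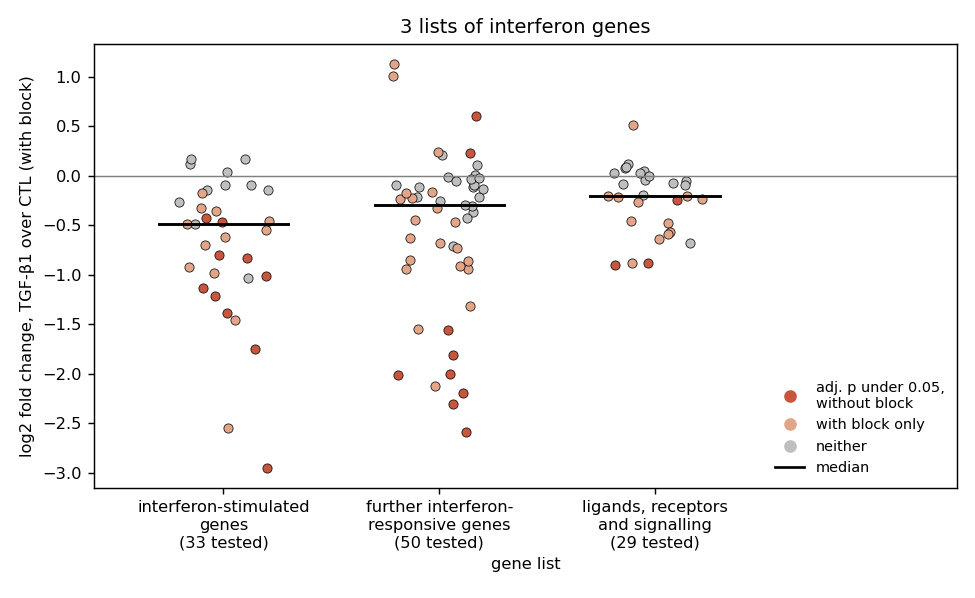
Log2 fold change with the replicate block, TGF-β1 over CTL, of the tested genes of 3 lists: the interferon-stimulated genes, further interferon-responsive genes, and ligands, receptors and signalling genes. Each point is a gene, dark red past an adjusted p of 0.05 without the block, light red with the block only and grey in neither, and the black lines are the medians (-0.49, -0.30 and -0.20).

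Markers of other cells were read beside these values. In bulk RNA, fewer cells of a type and less RNA per cell cannot be told apart. The 12 leukocyte and macrophage markers summed to 10.7 to 26.8 CPM in CTL and 10.2 to 26.3 CPM in TGF-β1, and Siglech was at 0 counts in all cultures. Of the 9 tested, 6 had a positive and 3 a negative estimate, with a median log2 fold change of 0.12. Csf1r alone fell, in both fits (-1.32 ± 0.25, edgeR adjusted p = 0.0238). The marker counts given here stand beside 6.69% of all tested genes lower without the block. With the block these shares were 19.1% lower and 15.1% higher. The 6 proximal tubule markers summed to 77.6 to 93.5 CPM in CTL and 35.7 to 49.3 CPM in TGF-β1, and 2 of the 4 tested fell without the block and 3 with it, in the same direction as the interferon-stimulated genes. Of the 7 tubule epithelium markers, 2 also fell without the block, Cdh16 (-1.50 ± 0.19, edgeR adjusted p = 0.00922) and Pax8 (-0.77 ± 0.08, edgeR adjusted p = 0.00436), and 5 with it. The fibroblast markers summed to 803 to 2116 and 765 to 2402 CPM, and of the 6 tested none passed without the block, while 2 fell and 1 rose with it. The endothelial markers summed to 3.07 to 5.98 and 2.85 to 6.02 CPM, and none of the 3 tested passed in edgeR in either fit, also at an unadjusted p under 0.05. The 4 collecting duct markers and the 4 of the thick ascending limb and distal tubule stayed at or below summed levels of 1.38 and 3.24 CPM, with 1 of each list lower with the block only. The part of these cells in the lower interferon-stimulated genes was not tested.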

How the data were processed

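Poly(A)-selected RNA of 6 RTEC cultures was sequenced. The deposited files hold whole-number counts per gene, which the authors made, per the labels' processing notes, with Trim Galore, STAR 2.4.1d and HTSeq 0.6.1 on GRCm38 (mm10). The annotation release and strand setting are not given in the sources used here. HTSeq's summary lines were left out of library sizes: reads with no feature (4.16 to 4.93%), ambiguous reads (1.88 to 1.97%) and reads aligned to several places (18.7 to 19.4%), so genes with close copies are undercounted. Of 46517 gene IDs, 46005 matched GENCODE M21, which gave symbols, exon lengths and coordinates.

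Counts were compared with edgeR 4.0.16 (R 4.3.3; TMM scaling, filterByExpr, robust quasi-likelihood test, two-sided), 3 TGF-β1 against 3 CTL, p-values being adjusted across the 15862 tested genes (Benjamini-Hochberg) and called at 0.05. DESeq2 1.42.0 and limma-voom (limma 3.58.1) were alternatives, as were other scalings and filters, thinned counts, leaving out cultures, and the replicate number as a block. The numbers come from the labels, and same-numbered cultures deviated together (r = 0.34, 0.68 and 0.57 across genes, against -0.62 to 0.22 for different numbers). The labels do not say whether a number marks an animal, so p-values measure the spread between cultures, which may be technical. With the block they measure the spread of the differences within replicate numbers, which may also be technical. Normalized counts are counts scaled to a common TMM library size. Fits were tested on simulated data. A count of 0 allows up to 3 counts.

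The 41 members and all lists were chosen with earlier results of these data known. All members are named: those past the threshold in either fit with every culture's value, the rest by fold change or counts. Of the other lists, up to 8 genes past it without the block and 6 with it, by size, are named, besides ligands and receptors; 1 gene that the rule names is not reported here.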

Additional observations from a re-analysis of the deposited data

How the results depend on the processing

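With 3 cultures a group, a permutation of 1 gene's values cannot go below p = 0.1, and calls rest on the edgeR fit across genes. The 10 members lower without the block also passed with RLE scaling, library size only, DESeq2, limma-voom, thinned counts and the replicate block. With no filter Gbp7 was lost, and with at least 10 counts in every culture Ifit1 and Iigp1 were not tested. The replicate block gave 22 lower members, and 17, 21 and 21 without numbers 1, 2 and 3, of which 17, 19 and 21 were among the 22. The unblocked count was 2 to 7 without 1 culture, and 0, 9 and 1 without both cultures of number 1, 2 and 3. Of the 10, these fits kept 2 to 6, and 0, 7 and 1. Lower calls over all genes were 186 to 807 and 0, 1290 and 190 in the same fits, against 1061. Members higher stayed at 0, except in the blocked fit without number 2 (1, Dtx3l) and without number 3 (2, Irf1 and Irgm1). The blocked fits without a number were chosen after seeing the data, and other causes of these shifts were not tested.

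The median of the members was -0.59 with library size only and -0.71 with no filter, -0.78 to -0.42 without 1 culture, and -0.59 in the blocked fit without number 1. Of the further genes, 7 were lower, against 13 with DESeq2, 25 with the block, 18, 22 and 27 in the blocked fit without a number, 1 to 8 without 1 culture, and 0, 12 and 4 without both cultures of number 1, 2 and 3. The 2 higher became 1 with library size only, 5 with the block, 4 or 5 in the blocked fit without number 2 or 3, 0 to 1 without 1 culture, and 0, 3 and 1 without number 1, 2 and 3. Of the signalling genes, 3 were lower, against 6 with library size only, 14 with the block, 6, 13 and 13 in the blocked fit without a number, 1 to 3 without 1 culture, and 0, 4 and 1 without number 1, 2 and 3. The count of higher ones was 1 with the block, also without numbers 2 or 3.

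Signs turned for genes that passed in no unblocked fit. Library size only gave -0.038 for Parp9 and -0.046 for Ifnar2. Without 1 culture the change ranged from -0.038 to 0.23 for Irf1, -0.78 to 0.14 for Usp18, -0.12 to 0.20 for Parp9, -0.39 to 0.087 for Parp14, -0.19 to 0.47 for Ifnz, -0.19 to 0.044 for Ifngr1 and -0.49 to 0.15 for Ifnlr1. Without number 1, Ifnz had -0.083, and -0.058 with the block. By counts without length, 2 of the 5 highest members (Irgm1 and Ifi27) stayed among the 5. Requiring a further A after the ISRE core left 54.8% of the 31 promoters, against 3.99% of all.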
